A study of Mus musculus with 12 samples.

Results

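The transcripts described here encode the actins, troponin subunits and tropomyosins of the cardiac thin filament. They are the 9 genes Acta1, Actc1, Tnnt2, Tnnt1, Tnni1, Tnni3, Tnnc1, Tpm1 and Tpm2, found by symbol among the 43686 rows of the deposited table, each on 1 row. RNA-seq of the ventricular wall was available as 6 WT and 6 KO libraries. The WT mice carried floxed Sdhaf4 alleles without Cre (Sdhaf4fl/fl), and the KO mice were littermates of that genotype that also carried Ckmm-Cre, which deletes the alleles under the muscle creatine kinase promoter in heart and in skeletal muscle. Sdhaf4 encodes an assembly factor of succinate dehydrogenase, complex II of the respiratory chain. The sample labels give the age as 2 months and call the mutants Sdhaf4-/-. The results of the paper state a younger age for these hearts. Its reporting summary lists ages for omics work, the oldest of which is close to that of the labels. The age is therefore uncertain. Both genotypes share the floxed alleles, with no treatment listed. Because no WT mouse carried the Cre, an effect of the Cre itself and one of the deletion cannot be told apart. In bulk tissue, fewer cells of a type and less RNA per cell cannot be told apart either.

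The thin filament is a double strand of actin in which tropomyosin lies along the groove and a troponin complex sits at regular intervals. Troponin C binds calcium, troponin I holds the filament in its inhibited state until calcium arrives, and troponin T anchors both to tropomyosin. Each subunit is made from a small gene family whose members are used in different muscles and at different ages. In the adult mouse ventricle the usual products are cardiac actin (Actc1), cardiac troponin T (Tnnt2), cardiac troponin I (Tnni3), the troponin C shared by heart and slow muscle (Tnnc1) and alpha-tropomyosin (Tpm1). Skeletal actin (Acta1), slow skeletal troponin I (Tnni1), slow skeletal troponin T (Tnnt1) and beta-tropomyosin (Tpm2) are used mainly in muscles other than the adult ventricle. Acta1 and Tnni1 are also used by the fetal and newborn heart.

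Between 23747014 and 27159228 reads were counted per WT library (median 25476732.5) and between 26542930 and 31393393 per KO library (median 29399085). Sdhaf4 fell from 25.2 ± 5.8 CPM (counts scaled to library size with TMM factors; mean ± SD, n = 6) to 2.4 ± 0.17, a log2 fold change of -3.39 ± 0.16 (SE, adjusted p = 1.95e-10 by edgeR's quasi-likelihood test), and every KO library lay under the lowest WT library, replicate 6, at 14.3 CPM. The 9 genes took 2.68% to 2.91% of all counts in WT and 2.41% to 3.21% in KO. The genotypes differed in much of the transcriptome: 51.1% of the 17155 rows tested passed an adjusted p of 0.05, with 25.6% higher and 25.5% lower in KO. KO replicate 3 held the lowest Acta1 and the highest Actc1, Tnnc1 and Tpm1 of the KO libraries, and WT replicate 6 the lowest Tnni3, Tnnc1, Tnnt2 and Tpm2 of the WT libraries. Where leaving them out changes a call or a direction, or moves a value by over 1.5 times, the value without them is also given.

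The proximal promoters of the 3 genes on which the results below turn are shown because an actin that changed, an actin that did not pass the test and the troponin that fell can be compared in them. Each run holds the 250 bases before the annotated start, 5′ to 3′ on the gene's strand, from RefSeq on GRCm38.p6. Capitals mark CArG boxes (CCWWWWWWGG, where W is A or T), the motif bound by serum response factor (Srf). They also mark MCAT elements (CATTCC or its reverse complement), the motif bound by TEAD factors. Only exact matches were searched for, so near matches stand in lower case.
Acta1, chr8:123894776-123895025, minus strand: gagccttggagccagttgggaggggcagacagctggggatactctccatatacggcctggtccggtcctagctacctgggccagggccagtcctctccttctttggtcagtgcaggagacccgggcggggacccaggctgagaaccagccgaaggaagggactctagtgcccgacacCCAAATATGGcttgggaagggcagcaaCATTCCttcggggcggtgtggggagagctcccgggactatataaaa
Actc1, chr2:114052876-114053125, minus strand: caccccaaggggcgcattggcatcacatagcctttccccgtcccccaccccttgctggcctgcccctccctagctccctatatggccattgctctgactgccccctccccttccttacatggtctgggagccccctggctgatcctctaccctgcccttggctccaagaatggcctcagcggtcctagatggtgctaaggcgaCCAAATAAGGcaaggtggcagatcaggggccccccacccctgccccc
Tnni3, chr7:4522529-4522778, minus strand: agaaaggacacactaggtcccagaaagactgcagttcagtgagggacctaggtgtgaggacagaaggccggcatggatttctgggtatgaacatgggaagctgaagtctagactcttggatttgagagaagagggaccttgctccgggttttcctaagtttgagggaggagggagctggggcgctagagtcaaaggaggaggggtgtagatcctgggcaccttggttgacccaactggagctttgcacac

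The actin promoters each held a CArG box on the gene's own strand, at 73 to 64 bases before the start of Acta1 and at 47 to 38 bases before that of Actc1. All 9 genes matched the RefSeq promoter table by symbol, with 11 starts, and the actins were the 2 of 9 with this motif, which 1.47% of the 32851 mouse promoter windows of the same length hold on either strand. An MCAT element lay 46 to 41 bases before the Acta1 start and was also found for Tnnt2, Tnnc1 and Tpm1, so in 4 of 9 genes, against 12.6% of all windows. A GATA motif (AGATAA or its reverse complement) was found in 1 of 9 genes, Tnnt2, against 9.99% of all windows. The Tnni3 window held none of these motifs. A gene was counted if any of its starts had a match, whereas the shares of all windows count single windows. The searches covered both strands and no match overlapped another, and a match in a window is a description of its letters only.

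Of the 9 genes, 8 passed the filter on low counts and Tnni1 did not. Acta1 and Tnnc1 were higher in KO (2 of 8, against 25.6% of all rows), Tnni3 and Tpm1 were lower (2 of 8, against 25.5%), and 4 did not pass an adjusted p of 0.05, namely Actc1, Tnnt2, Tnnt1 and Tpm2. The share called, 4 of 8, is close to the 51.1% of all rows. With the study's thresholds (adjusted p of 0.005 and a log2 fold change of 1), 1 gene was called higher, Acta1, against 5.36% of all rows, and no member was called lower, against 4.87%. The 12 values did not overlap between genotypes for 3 genes, Acta1, Tnni3 and Tnnc1, against 30.1% of all rows. The median log2 fold change was 0.06 over the 8 genes and 0.00 over all rows.

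**Figure D1:**
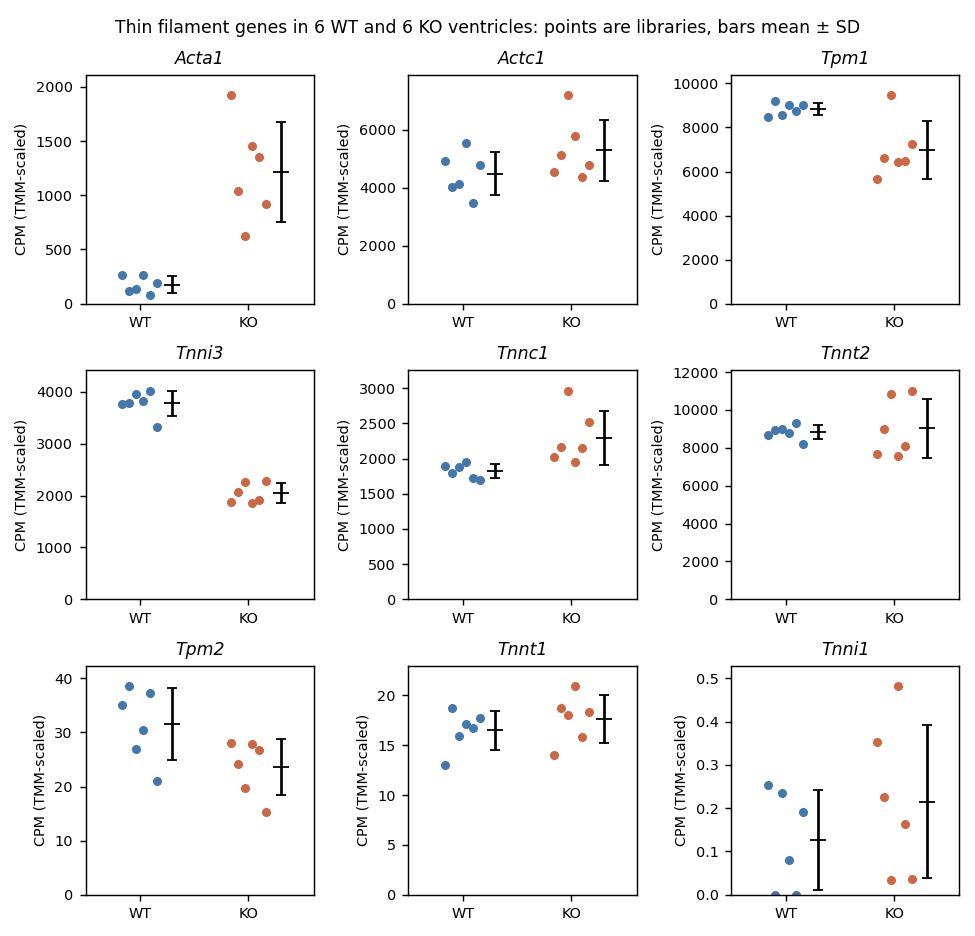
CPM (TMM-scaled, linear axis from 0, 1 scale per panel) of the 9 genes in 6 WT and 6 KO libraries. Points are libraries and bars the mean ± SD. Acta1, Tnni3 and Tnnc1 show no overlap between genotypes, and the Tpm1 value of 9458 CPM in KO is replicate 3.

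Acta1 encodes the alpha-actin of skeletal muscle (chromosome 8, 131818454 to 131821422, minus strand, on the C57BL/6NJ assembly used by the table). In WT ventricles it ranged from 81 CPM in replicate 5 through a median of 164 to 268 in replicate 1. In KO ventricles it ranged from 620 in replicate 3 through a median of 1193 to 1921 in replicate 1. The lowest KO value was thus above the highest WT value. The means were 176 ± 78.4 and 1215 ± 458 CPM (SD, n = 6), a ratio of 6.89, and the log2 fold change was 2.78 ± 0.37 (SE, adjusted p = 7.88e-05). Removing any 1 library gave values from 2.61 to 2.93. Among the 17155 rows tested, 121 had a larger log2 fold change. The libraries of 1 genotype varied more in Acta1 than in the abundant genes of the group, with a coefficient of variation of 44.4% in WT and 37.7% in KO.

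Actc1, the alpha-actin of the adult heart (chromosome 2, 120378528 to 120384792, minus strand), had a smaller fold change. Its WT values ran from 3481 CPM through a median of 4467 to 5548, and its KO values from 4365 through 4957 to 7188. The ranges overlapped, and 2 of 6 KO libraries were above the highest WT library. The log2 fold change was 0.24 ± 0.13 (SE) and did not pass the test (adjusted p = 0.135, and 0.0601 to 0.337 over the alternative settings). Without KO replicate 3 it was 0.13 (adjusted p = 0.337). An overlapping row without a name on the other strand held 0 to 6 counts per library.

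The share of Acta1 in the counts of both actins was 3.64 ± 1.09% in WT (2.27% in replicate 5, median 3.52%, 5.18% in replicate 1) and 19 ± 7.39% in KO (7.94% in replicate 3, median 18.4%, 29.7% in replicate 1). Every KO library was above every WT library, and the difference of 15.4 percentage points had p = 0.00216 in a two-sided exact permutation test, the smallest that the splits of 12 libraries into 6 and 6 allow, and 0.00866 adjusted over the 4 shares tested. Without KO replicate 3 and WT replicate 6 the difference was 17.6 points. Read counts grow with transcript length, and the share was 2.29% in WT and 12.8% in KO on the deposited FPKM scale, which divides by length. On counts per kilobase of the table's own length column it was 3.74% and 19.4%.

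In CPM, the sum of both actins was 4658 ± 818 in WT and 6515 ± 851 in KO (p = 0.00649, two-sided exact permutation test, 0.013 adjusted over the 4 sums). The ranges, 3562 to 5814 and 5696 to 7807 CPM, overlapped, with 4 of 6 KO libraries above the highest WT library. Of the mean difference of 1856 CPM, Acta1 made up 1039 and Actc1, which did not pass the test on its own, 817. Without KO replicate 3 the difference was 1598 CPM, of which Acta1 made up 1158 and Actc1 440.

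**Figure D2:**
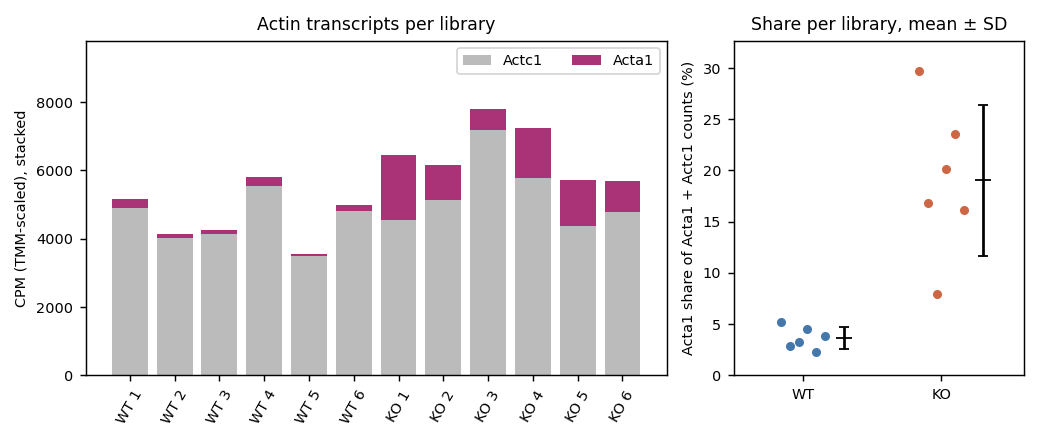
Left, stacked bars of Actc1 and Acta1 CPM (TMM-scaled) for each of 12 libraries. Right, the Acta1 share (percent of the counts of both actins) per library with the mean ± SD, 2.27% to 5.18% in WT and 7.94% to 29.7% in KO.

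Reads from the coding regions of actin genes could be shared between copies. In the GENCODE M21 transcripts, 2.22% of the 50-base windows of the longest Acta1 transcript were also found in transcripts of another gene model, Gm47692, and no window of Actc1 or of the other 7 genes was found in another gene. The length of the sequenced reads and how the counting treated shared reads are not given in the sources used here.

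Among the 4 troponin genes tested, Tnni3 had the largest absolute log2 fold change. Tnni3, cardiac troponin I, the inhibitory subunit (chromosome 7, 1470755 to 1477017, minus strand), ranged from 3332 CPM in replicate 6 through a median of 3811 to 4019 in WT, and from 1860 through 1991 to 2289 in KO. No value overlapped, and all 6 KO libraries were under the lowest WT library. The means were 3784 ± 242 and 2043 ± 195 CPM (SD, n = 6), a log2 fold change of -0.89 ± 0.07 (SE, adjusted p = 2.72e-08), with -0.93 to -0.86 as each library was left out. Dnaaf3, which overlaps Tnni3 on the same strand, held 32 to 124 counts per library.

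Tnni1, the slow skeletal troponin I of the fetal heart (chromosome 1, 144591652 to 144624948, plus strand), was close to the limit of detection in every library. It had 19 counts summed over the 6 WT libraries and 38 over the 6 KO libraries. The counts ran from 0 (replicates 2 and 5) to 6 in WT and from 1 (replicates 3 and 6) to 14 (replicate 4) in KO, and the ranges overlapped. With no filter on low counts the log2 fold change was 0.76 ± 0.75 (SE, adjusted p = 0.455). The Tnni1 share of the troponin I counts was 0.00342% in WT and 0.0112% in KO (p = 0.0952 by the two-sided exact permutation test, 0.19 adjusted), and the test passed 0.05, at p = 0.0303 unadjusted, only when KO replicate 3 or KO replicate 6 was left out alone, or at p = 0.0476 when KO replicate 3 and WT replicate 6 were left out together. For WT replicate 2, 0 of 104860 troponin I counts allows a share of up to 0.00286% at the limit of 3 counts (95% Wilson upper limit 0.00366%). The highest share, in KO replicate 4, was 0.0259% (95% Wilson interval 0.0154% to 0.0434%, counting error only). The sum of both troponin I genes therefore followed Tnni3, with 3784 ± 242 CPM in WT and 2044 ± 195 in KO (p = 0.00216, exact permutation test, 0.00866 adjusted).

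Tnnc1 encodes the calcium-binding subunit of cardiac and slow muscle (chromosome 14, 25351484 to 25354838, plus strand). It ranged from 1691 CPM through a median of 1834 to 1946 in WT and from 1952 through 2152 to 2961 (replicate 3) in KO. The groups did not overlap, although the highest WT and the lowest KO values were close. The log2 fold change was 0.33 ± 0.09 (SE, adjusted p = 0.00518) and 0.24 to 0.38 with each library left out, and 0.22 (adjusted p = 0.0119) without KO replicate 3 and WT replicate 6. Nisch lies over Tnnc1 on the other strand with 4508 to 8617 counts per library, and since no source used here says whether counting used the strand, reads of the overlap cannot be assigned with certainty.

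Tnnt2, cardiac troponin T (chromosome 1, 144650228 to 144666073, plus strand), ranged from 8203 CPM through 8876 to 9310 in WT and from 7562 through 8549 to 11009 in KO. The KO libraries lay on both sides of the WT range, with 2 above and 3 under it. The log2 fold change was 0.03 ± 0.09 (SE, adjusted p = 0.793) and turned to -0.03 without KO replicate 3 or without KO replicate 6. Tnnt1, slow skeletal troponin T (chromosome 7, 1452003 to 1465407, minus strand), had 16.5 ± 1.95 CPM in WT and 17.6 ± 2.4 in KO (log2 fold change 0.09 ± 0.10, adjusted p = 0.46). Its share of the troponin T counts was 0.187 ± 0.0239% and 0.199 ± 0.0412% (p = 0.615, exact permutation test).

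Tnnt1 and Tnni3 are neighbours on the same strand with 5347 bases and no other row between them. Tnni3 fell while Tnnt1 had an adjusted p of 0.46. Tnni1 and Tnnt2 likewise lie on 1 strand of chromosome 1, 25279 bases apart, with 1 row, Lad1, between them.

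Of the tropomyosins, Tpm1 was lower in KO and Tpm2 did not pass the test. Tpm1, alpha-tropomyosin, the main tropomyosin of the mouse heart (chromosome 9, 68732957 to 68759761, minus strand), ranged from 8462 CPM through 8876 to 9198 in WT and from 5639 through 6547 to 9458 in KO. In 5 of 6 KO libraries Tpm1 was under the lowest WT library, and KO replicate 3 was above the highest. The log2 fold change was -0.34 ± 0.10 (SE, adjusted p = 0.00754) and -0.45 without KO replicate 3 (adjusted p = 1.03e-05). Tpm2, beta-tropomyosin (chromosome 4, 43197314 to 43206319, minus strand), had 31.5 ± 6.72 CPM in WT and 23.7 ± 5.11 in KO. Its log2 fold change of -0.41 ± 0.17 did not pass (adjusted p = 0.0594), whereas DESeq2 (adjusted p = 0.0217) and edgeR without WT replicate 6 (adjusted p = 0.0129) called it, as did edgeR without WT replicate 6 and KO replicate 3 (adjusted p = 0.029). The Tpm2 share of the tropomyosin counts was 0.356 ± 0.0762% in WT and 0.354 ± 0.119% in KO (p = 0.955, exact permutation test), and the summed tropomyosin CPM was 8869 ± 284 and 7001 ± 1317 (p = 0.0152, exact permutation test, 0.0202 adjusted).

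**Figure D3:**
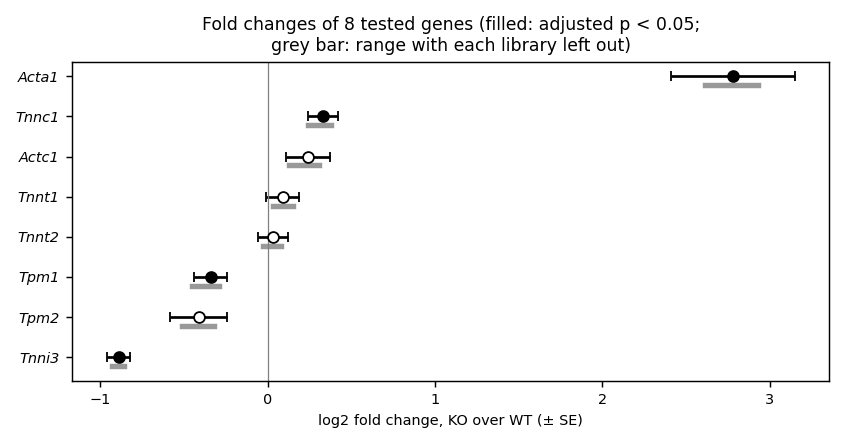
log2 fold change (KO over WT) with its SE for the 8 genes tested. Filled points passed an adjusted p of 0.05, and the grey bars give the range with each of 12 libraries left out. Acta1 stands at 2.78 and Tnni3 at -0.89, and the other 6 lie between -0.41 and 0.33.

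Levels were compared between genes per length. On the deposited FPKM scale the WT order was Tnnt2 (6975 ± 217 FPKM), Tnni3 (6159 ± 302), Tpm1 (6140 ± 290), Actc1 (5043 ± 849), Tnnc1 (2867 ± 145), Acta1 (123 ± 54.3), Tpm2 (24.6 ± 5.18), Tnnt1 (23.3 ± 3) and Tnni1 (0.131 ± 0.12). In this order the ranges of Tnni3, Tpm1 and Actc1 overlapped from neighbour to neighbour, as did those of Tpm2 and Tnnt1, and the other neighbours were apart. In KO the order was Tnnt2 (7126 ± 1038), Actc1 (5954 ± 1094), Tpm1 (4835 ± 792), Tnnc1 (3602 ± 501), Tnni3 (3327 ± 234), Acta1 (854 ± 336), Tnnt1 (24.9 ± 3.51), Tpm2 (18.6 ± 4.39) and Tnni1 (0.227 ± 0.19). Tnni3 thus moved from place 2 to place 5. The first 5 genes overlapped from neighbour to neighbour in KO, as did Tnnt1 and Tpm2. Acta1 was at place 6 in both genotypes, apart from the gene above and the gene below.

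The lengths behind these FPKM values are not those of the table's length column for most of the genes, since the values divide Tnnt2 by 1263 bases where the column gives 3324, and Actc1 by 888 where it gives 1473. Per kilobase of the length column, Tnni3 was at place 1 in WT (4140 ± 203 CPM per kilobase) and at place 5 in KO (2236 ± 157), Actc1 was at place 1 in KO (3590 ± 659), and Tnnt2 was at place 4 in WT and 3 in KO. The place of Acta1 and the move of Tnni3 to place 5 were alike on both scales, while the place of Tnnt2 depended on the length used.

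The proportions between the transcripts within a library also differed between the genotypes. The FPKM of Tnni3 was 0.883 ± 0.0255 of that of Tnnt2 in WT (0.837 to 0.907) and 0.471 ± 0.0346 in KO (0.428 to 0.507). The ratio of Tnni3 to Tnnc1 was 2.15 ± 0.146 in WT (2.04 to 2.42) and 0.931 ± 0.0742 in KO (0.79 to 0.992), while that of Tnnc1 to Tnnt2 was 0.411 ± 0.0264 and 0.507 ± 0.033. The ratio of Tpm1 to Tnnt2 was 0.881 ± 0.0521 in WT and 0.68 ± 0.0699 in KO, and that of both actins to Tpm1 was 0.842 ± 0.145 and 1.42 ± 0.202. Tnni3, Tnnc1 and Acta1, which enter some of the ratios, did not overlap between genotypes on their own, as was so for 30.1% of all rows. None of these 5 ratios overlapped between genotypes. They were chosen after the values had been seen and are given without a test; their sizes depend on the gene lengths used, and so, for the ratio of both actins to Tpm1, does the change, which per kilobase of the length column was from 1.04 ± 0.183 to 1.87 ± 0.306.

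**Figure D4:**
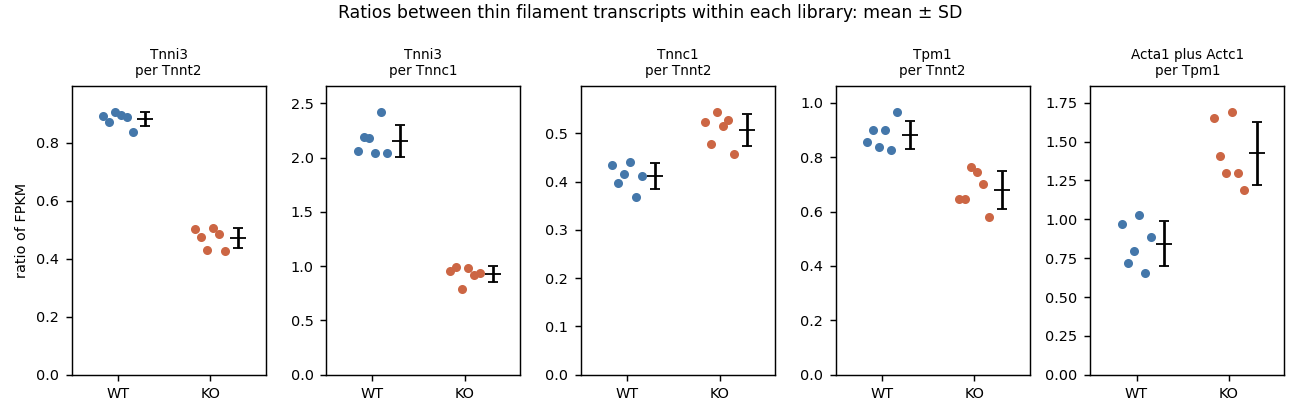
Ratios of FPKM between thin filament genes within each library (linear axes from 0), with the mean ± SD of 6 WT and 6 KO libraries. Tnni3 per Tnnt2 was 0.837 to 0.907 in WT and 0.428 to 0.507 in KO.

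Libraries of 1 genotype also differed together. With the genotype means removed, log2 CPM of Tnnt2 and Tnni3 had a Pearson's r of 0.92 and a Spearman's rho of 0.94 over 12 libraries (r = 0.95 within WT and 1.00 within KO). Acta1 ran against Tnnt2 (r = -0.68, rho = -0.81), with r = -0.58 after the 2 libraries farthest from the median were left out, and for Tnnt2 and Tnni3 that value was 0.88. Acta1 and Actc1 had r = 0.97 within WT and -0.68 within KO (n = 6 each), and 0.17 (rho = 0.22) over all 12, which became 0.47 without WT replicate 5 and KO replicate 3, the libraries farthest from the Acta1 median. KO replicate 3 held both the lowest Acta1 and the highest Actc1 of the KO libraries. The genes whose pattern was most like that of Acta1 by this measure were Ace (r = 0.95), Irf7 (r = 0.93) and B2m (r = 0.90), and by rank Oasl2, Ifitm3 and Irf9. Ace encodes angiotensin-converting enzyme, Irf7 an interferon regulatory factor and B2m the light chain of class I MHC. These correlations are descriptions across libraries whose genes share 1 depth and scaling each, and the difference between the genotypes was not tested. For Tnni1 no such genes are given because it did not pass the filter.

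Other isoforms of the same families were measured from a list of 9, of which 8 had a row and 7 were tested (Actg1 was not analysed here). Of the 7, 1 was higher and 2 were lower, against 51.1% of all rows called in either direction, with a median log2 fold change of 0.13. Tnni2, fast skeletal troponin I, was 1.23 to 3.07 CPM in WT and 0.289 to 0.722 in KO, a log2 fold change of -2.19 ± 0.29 (SE, adjusted p = 8.3e-06). Acta2, the actin of vascular smooth muscle, fell from 104 ± 21.2 to 76.8 ± 14.4 CPM (log2 fold change -0.44 ± 0.15, adjusted p = 0.0272). This call was lost without WT replicate 2 or 4, without KO replicate 3 or 6 (adjusted p 0.0522 to 0.057), and with no filter on low counts (0.0622). It had a lower adjusted p in DESeq2 (0.00425) and in edgeR with a replicate block (4.75e-05). Tpm3, another tropomyosin gene, rose from 67.8 ± 5.94 to 85.5 ± 9.15 CPM (0.33 ± 0.07, adjusted p = 0.000988). The counts are per gene and do not tell its transcript forms apart.

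Proteins that cap, sever or bind the thin filament were taken from a list of 21, of which 19 had a row and were tested (Nebl and Actn2 were not analysed here). Of the 19, 12 were higher, 2 were lower and 5 did not pass, with a median log2 fold change of 0.30, against 25.6% higher and 25.5% lower and a median of 0.00 over all rows. Xirp2, an actin-binding protein of the intercalated disc, rose from 243 ± 12.1 to 1387 ± 356 CPM (log2 fold change 2.51 ± 0.15, adjusted p = 1.15e-08). Its lowest KO value, 888 CPM, was in replicate 3, as for Acta1. Capza1, a subunit of the capping protein of the barbed end, rose from 17.5 ± 1.93 to 31.7 ± 6.06 CPM (0.85 ± 0.12, adjusted p = 1.75e-05). The 2 that fell were Tmod4, a tropomodulin of skeletal muscle that caps the pointed end, from 19 ± 3.1 to 1.71 ± 0.491 CPM (-3.47 ± 0.16, adjusted p = 6.11e-11), and Klhl41, a kelch protein of the sarcomere, from 72.7 ± 2.89 to 39 ± 6.58 CPM (-0.90 ± 0.09, adjusted p = 6.22e-07). No value of these 4 genes, named for their large fold changes, overlapped between genotypes, as was so for 30.1% of all rows.

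Transcription factors and cofactors known to act on sarcomere genes were a list of 18, of which 17 were tested. Of these, 9 were higher, 5 were lower and 3 did not pass, with a median log2 fold change of 0.24, against the same 25.6% and 25.5% of all rows. Gata4, a zinc finger factor of heart muscle, rose from 111 ± 9.03 to 171 ± 8.7 CPM (0.63 ± 0.06, adjusted p = 9.71e-08). The TEAD factors Tead1 (173 ± 12.9 to 254 ± 27.4 CPM, 0.56 ± 0.07, adjusted p = 5.01e-06) and Tead4 (3.84 ± 0.512 to 5.89 ± 0.838 CPM, 0.62 ± 0.13, adjusted p = 0.000731) rose without overlap. Of the other TEAD factors, Tead2 was higher (0.43 ± 0.15, adjusted p = 0.0222) and Tead3 lower (-0.17 ± 0.07, adjusted p = 0.0414). Also lower were Thra (-0.44 ± 0.06, adjusted p = 1.07e-05), Mef2d, Mef2a and Thrb. Mkl1, a cofactor of Srf, rose from 9.19 ± 0.896 to 13.1 ± 2.17 CPM (0.51 ± 0.11, adjusted p = 0.000948), with 5 of 6 KO libraries above the highest WT library. Mkl2 was also higher (0.50 ± 0.08, adjusted p = 8.72e-05), as was Srf (0.26 ± 0.07, adjusted p = 0.00404).

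**Figure D5:**
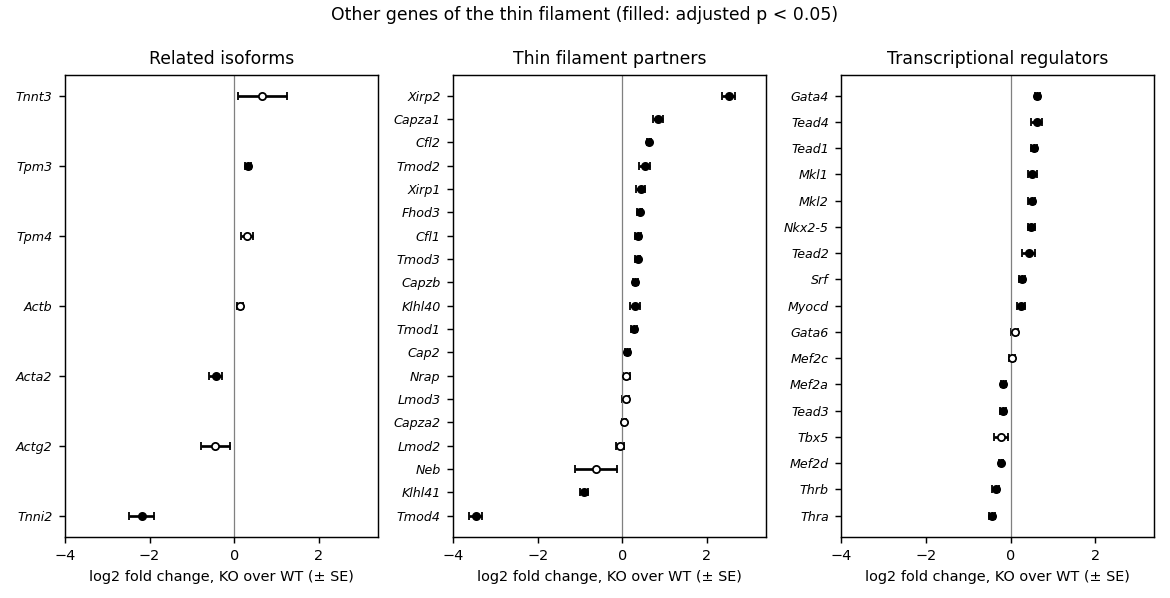
log2 fold change (KO over WT) with its SE for 7 related isoforms, 19 thin filament partners and 17 transcriptional regulators. Filled points passed an adjusted p of 0.05, and the outermost are Tmod4 at -3.47 and Xirp2 at 2.51.

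Markers of the cells in the tissue were summed per library, and their part in these results was not tested. Only the fibroblast sums did not overlap between the genotypes. Cardiomyocyte markers (9 of 10 with a row) summed to 49223 to 54534 CPM in WT and 43616 to 58895 in KO, with 2 of 9 higher and 4 lower. Of all rows tested, 25.6% were higher and 25.5% lower, and the counts in this paragraph stand beside these shares. Fibroblast markers rose in 8 of 8 genes, from 1420 to 1670 CPM in sum to 2584 to 4867. Markers of fast skeletal muscle, a tissue that also makes Acta1, were low in both genotypes, at 3.24 to 18.4 CPM in WT and 1.46 to 6.29 in KO over 12 genes, with Myod1 at 0 in every library. The highest WT sum was in replicate 1, and the next was 7.99 CPM. Of these genes 4 passed the filter on low counts, a small number and all at a low level. Of the 4, Atp2a1, Mylpf and Tnni2 were lower and Tnnt3 did not pass the test. Tnni2 is in this list and among the related isoforms, and the part of skeletal muscle in the Acta1 values was not tested. Smooth muscle markers summed to 279 to 442 and 285 to 402 CPM, with 1 of 7 higher and 2 lower, and atrial markers to 1.53 to 3.07 and 3.03 to 4.5 CPM, with 1 of 1 tested higher. Endothelial markers summed to 1162 to 1300 and 1260 to 1531 CPM (3 of 5 higher), and macrophage markers to 129 to 182 and 124 to 201 CPM (2 of 5 lower).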

How the data were processed

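The authors purified mRNA from ventricular wall on poly-T beads, mapped the reads (HISAT2 2.0.5 and mm10 per the labels, although the rows carry C57BL/6NJ gene identifiers), counted them with HTSeq 0.9.1 and deposited raw counts per gene. FPKM per library were deposited too, as were the authors' fold changes and p-values, which were not used.

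Counts of 6 WT and 6 KO libraries were analysed with edgeR 4.0.16 in R 4.3.3: filterByExpr, TMM, robust quasi-likelihood test, Benjamini-Hochberg adjustment over 17155 rows. Shares and sums were tested by exact permutation. Alternatives were DESeq2 1.42.0, other normalizations and filters, a replicate block, and each library left out. The script was tested on simulated data. The closest replicates differed by a chi-square of 7.41 per degree of freedom, so none was counted as 1. Values under 1 CPM rest on few counts. The labels do not say that every library is a separate mouse, so p-values measure the spread between libraries. The members and gene lists were chosen with earlier results of these data known. Named genes of the other lists are the 4 with the largest fold change among those called with at least 1 CPM. Tead2, Mkl2, Srf and the regulators called lower are named besides. For likeness to Acta1, rows with at least 5 CPM were ranked.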

Additional observations from a re-analysis of the deposited data

Results flagged for a closer look

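Among 56 groups of 6 values examined, 3 held a library far from the other 5, where chance flags about 1 in 20 groups. Tnni3 was 3332 CPM in WT replicate 6, against 3773 to 4019 in the other 5 WT libraries. The sum of Tnni1 and Tnni3 was likewise 3332 CPM there, since Tnni3 makes up nearly all of it. Tmod4 was 2.65 CPM in KO replicate 4, against 1.19 to 1.69 in the other 5 KO libraries.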

How the results depend on the processing

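The numbers of genes called among the members (2 higher, 2 to 3 lower) and the calls of Acta1, Tnni3, Tnnc1 and Tpm1 held under every alternative run. Without each library in turn, the KO minus WT difference was 13.3 to 17.6 points for the Acta1 share, 0.00485 to 0.00973 points for the Tnni1 share, -0.00372 to 0.0183 points for the Tnnt1 share, -0.0308 to 0.0264 points for the Tpm2 share and -186 to 502 CPM for the troponin T sum. The log2 fold change of Tnnt2 was -0.03 to 0.08, and -0.03 without KO replicate 3 or 6. With WT replicate 6 and KO replicate 3 both left out, an alternative added after the data had been seen, it was -0.05. The Tnni1 share then differed by 0.0102 points (p = 0.0476, exact permutation test) and the Tnnt1 share by 0.024 points. The Tpm2 share differed by 0.00153 points and the troponin T sum by -279 CPM. The Tnnt1 and Tpm2 shares, the troponin T sum and Tnnt2 passed the test in no setting run, and the cause of their changes of sign was not tested.

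Same-numbered libraries of both genotypes did not deviate together (correlations of -0.16 to 0.02 over 6 pairs), so the replicate numbers do not pair them. With the replicate block, the tropomyosin sum differed by -1867 CPM with p = 0.0625 (exact sign-flip permutation test, smallest possible p 0.0312). In edgeR with the block, Tpm2 was called (adjusted p = 0.00064), and Acta2 had an adjusted p of 4.75e-05. Depth limits Tnni1, with 0 to 14 counts per library, and the Tnni1 share.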
